A study of Arabidopsis thaliana with 9 samples.

Results

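The MIR854 family of Arabidopsis thaliana consists of 5 annotated microRNA genes, MIR854a to MIR854e, out of 37899 nuclear genes in the RefSeq gene table of the TAIR10.1 (Columbia) assembly. The 5 genes were selected on the presence of deposited FIE peaks: in each of the 2 peak lists of the study, a peak overlapped the gene body plus 3 kb on both sides by at least 1 bp. The presence of a peak at each gene is therefore how the family was selected, and it is described here without a test. All 5 genes were found in the table. A wild-type peak was present at 5 of 5 (26.1% of all nuclear genes under the same rule), a knockdown peak at 5 of 5 (16.2%) and peaks of both lists at 5 of 5 (5.19%). A wild-type and a knockdown peak overlapped each other in 5 of 5 windows (2.37%). The other values of these peaks come from the same lists and are descriptions too.

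FIE is a WD-repeat subunit of Polycomb repressive complex 2 (PRC2), an enzyme complex that methylates histone H3 at lysine 27 and so keeps genes repressed. Small RNAs of the miR854 family have been described in Arabidopsis as products of Athila retrotransposon sequence near the centromere, where DNA methylation and H3K9 methylation normally keep such elements silent. Their described target is the transcript of UBP1b, an RNA-binding protein of stress granules. Genes inside a repeat of this kind have near-identical relatives elsewhere in the genome, so a read from one copy can align to another.

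The study profiled FIE by chromatin immunoprecipitation and sequencing in plants of the Ws strain at an age of 30 hr, grown untreated on plates under 16 hr of light and 8 hr of dark. Each of 3 groups had 3 replicate libraries. They were anti-FIE chromatin from wild-type plants without a transgene, anti-FIE chromatin from plants carrying pRNAi-BPC and pRNAi-ZnF (the double knockdown), and input chromatin from the wild type. BPC proteins bind GA-repeat DNA. The labels do not spell out ZnF, the genes that the transgenes target or how many plant lines were used. The files used here hold 1 peak list per anti-FIE group, so no value below has a spread over replicates and no difference between the groups could be tested over plants. No knockdown input is among the labelled groups, and the residual level of the targeted proteins was not measured by these files.

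All 5 genes lay on chromosome 5 and spanned 0.618 Mb of its gene-poor region, here 10000001 to 14000000. Each was annotated with a length of 221 bp inside a longer pseudogene. In chromosome order they were MIR854b (AT5G04935, 11324370 to 11324590), MIR854d (AT5G04965, 11689861 to 11690081), MIR854c (AT5G04985, 11838096 to 11838316), MIR854a (AT5G04995, 11847719 to 11847939) and MIR854e (AT5G05005, 11942467 to 11942687). MIR854c and MIR854a were neighbours, 9402 bp apart, and the other gaps between members ran from 94527 to 365270 bp. The host pseudogenes were AT5G29975 at MIR854b, AT5G31719 at MIR854d, AT5G32197 at MIR854c, AT5G32228 at MIR854a and AT5G32306 at MIR854e. The gene table gives no strand and no exons, and no sequence of the genes was used here.

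The annotation around the copies repeated itself. The host pseudogene began 1309 bp below the start of the microRNA gene at MIR854c, MIR854a and MIR854e alike. A second pseudogene of 2733 to 2736 bp lay below it at the same 3 genes, starting 5356, 5354 and 5294 bp below the gene start. At MIR854d a pseudogene of 2733 bp lay on the other side, 2781 to 5513 bp above the gene start. When the offsets at MIR854e were mirrored about the middle of the gene, its second pseudogene fell at 2779 to 5514 bp. The place of this pseudogene at MIR854e was thus that at MIR854d turned around, to within 2 bp at either end.

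FIE peaks covered most of the windows of MIR854b, MIR854d and MIR854e in both lists, and less of those of MIR854c and MIR854a. In the wild-type list, peaks covered 6053 bp of the 6221 bp window at MIR854b (97.3%), 5924 bp at MIR854e (95.2%) and 5665 bp at MIR854d (91.1%). They covered 3840 bp at MIR854c (61.7%) and 3054 bp at MIR854a (49.1%). In the knockdown list, the covered share was 97.4% at MIR854b (6057 bp), 95.7% at MIR854d (5951 bp), 95.4% at MIR854e (5934 bp), 79.3% at MIR854c (4936 bp) and 70.1% at MIR854a (4359 bp). The same 3 genes were thus near full coverage in both lists, with MIR854c and MIR854a last in that order.

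**Figure D1:**
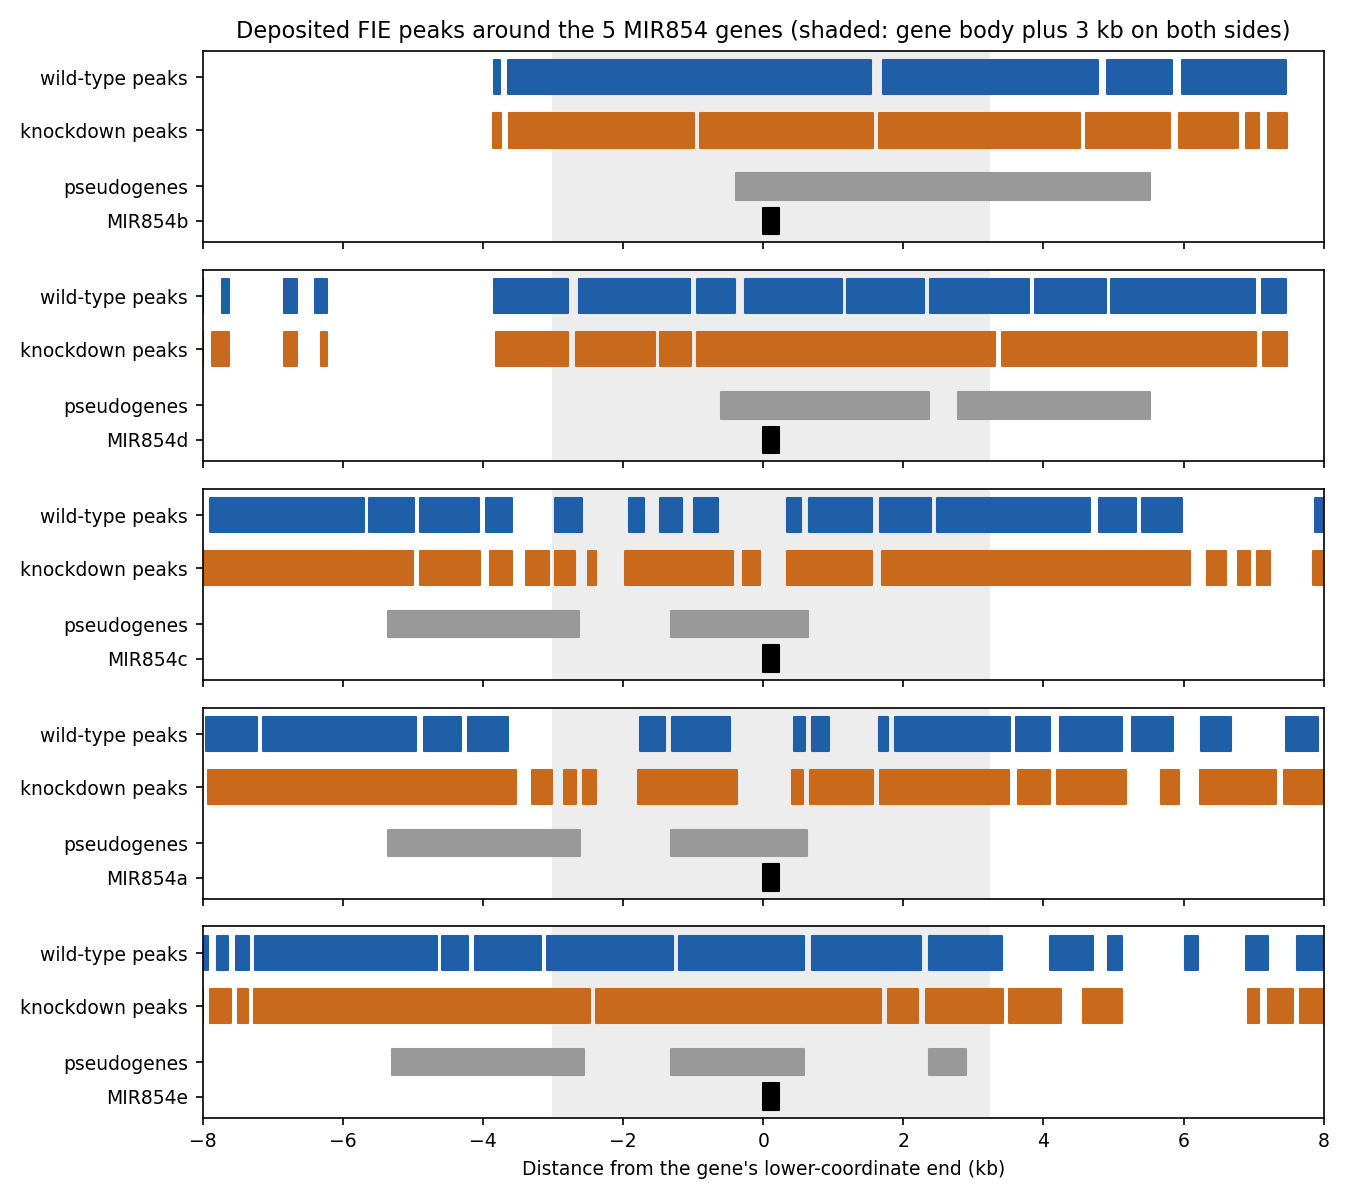
Deposited FIE peaks within 8 kb of each MIR854 gene, drawn to scale by distance (kb) from the gene's lower-coordinate end, with wild-type peaks in blue, knockdown peaks in orange, pseudogenes that reach into the shaded window in grey and the microRNA gene in black. Peaks cover the gene at MIR854b, MIR854d and MIR854e in both lists and leave it free at MIR854c and MIR854a.

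The annotated gene itself was under a peak at 3 of the 5 copies. At MIR854b, MIR854d and MIR854e all 221 bp were covered in both lists. In these windows the wild-type body peaks were 5186 bp long at MIR854b (11320723 to 11325908), 1386 bp at MIR854d (11689600 to 11690985) and 1793 bp at MIR854e (11941260 to 11943052). At MIR854c and MIR854a, 0 bp of the body was covered in either list. Peaks over the gene body in both lists were found at 1.2% of all nuclear genes and at 0.935% of the 321 other microRNA genes.

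At the 2 copies with an uncovered body the nearest peaks were still close. At MIR854c the nearest wild-type peak began 115 bp from the gene and the nearest knockdown peak ended 46 bp from it. At MIR854a the distances were 218 bp to a wild-type peak and 195 bp to a knockdown peak. The space between the flanking peaks at MIR854c was 982 bp for wild-type peaks and 383 bp for knockdown peaks. At MIR854a it was 918 and 795 bp. Peaks in the lists carry call numbers that rise along each chromosome, and the deposited rows, all with a −log10 q above 10, leave some numbers out. In this space the wild-type list lacked 2 numbers at MIR854c and 2 at MIR854a, and the knockdown list lacked 2 at MIR854a. None was left out in the knockdown at MIR854c. An empty body in the other 3 cases is therefore not a measured absence of a call.

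The lists overlapped over most covered bases at these genes, and where they differed the knockdown list covered more. Over the 5 windows, 24536 bp were under wild-type peaks, 27237 bp under knockdown peaks and 23970 bp under both. The knockdown peaks thus covered 97.7% of the wild-type peak length, from 96.3% at MIR854e to 98.7% at MIR854b. In the opposite direction, the wild-type peaks covered 98.6% of the knockdown length at MIR854b, 96.1% at MIR854e, 93.8% at MIR854d, 75.02% at MIR854c and 69.0% at MIR854a. The bases found in the knockdown alone lay mostly at MIR854c and MIR854a.

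At MIR854a the knockdown list had 2 peaks, 2842 to 2673 bp and 2572 to 2387 bp below the gene start, where the wild-type list had no deposited peak. Their folds, at 4.58 and 5.03, were near the lower end of the knockdown peaks here. At MIR854c, 3 separate wild-type peaks between 1914 and 648 bp below the gene start faced a single knockdown peak of 1554 bp (11836117 to 11837670). A knockdown peak of 241 bp, 286 to 46 bp below the gene start, had no wild-type counterpart among the deposited peaks. The wild-type list lacked 2 call numbers in the space that holds it, so this is not a measured absence of a call.

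For comparison, knockdown peaks covered 80.5% of the wild-type peak length in the rest of the chromosome 5 gene-poor region, 77.1% in the gene-poor regions of all chromosomes and 3.74% on the chromosome arms. The members were selected for having peaks in both lists, so a high share was in part fixed by that choice. It was also in part fixed by coverage. Knockdown peaks filled 70.1% to 97.4% of each member's window, against 6.94% of the chromosome 5 gene-poor region with these windows included. The shares at the members and in the region are therefore not like for like. Under the same 3 kb rule, 29% of the 321 other microRNA genes had a wild-type peak, 14% a knockdown peak and 5.3% both. For the 906 other genes of the chromosome 5 gene-poor region these shares were 25.2%, 42.1% and 17.8%. Among those 161 other genes of the region with peaks of both lists, the median share of the window covered was 3.03% for wild-type peaks and 7.13% for knockdown peaks. The lowest member, MIR854a, had a higher covered share than 98.0% of all 906 genes for wild-type peaks and 98.2% for knockdown peaks, with 18 and 16 genes above it. The 906 genes include the pseudogenes that hold or adjoin the members, whose windows overlap the members' windows and share their peaks. The members were selected on peaks and these genes were not, so these places are a description.

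**Figure D2:**
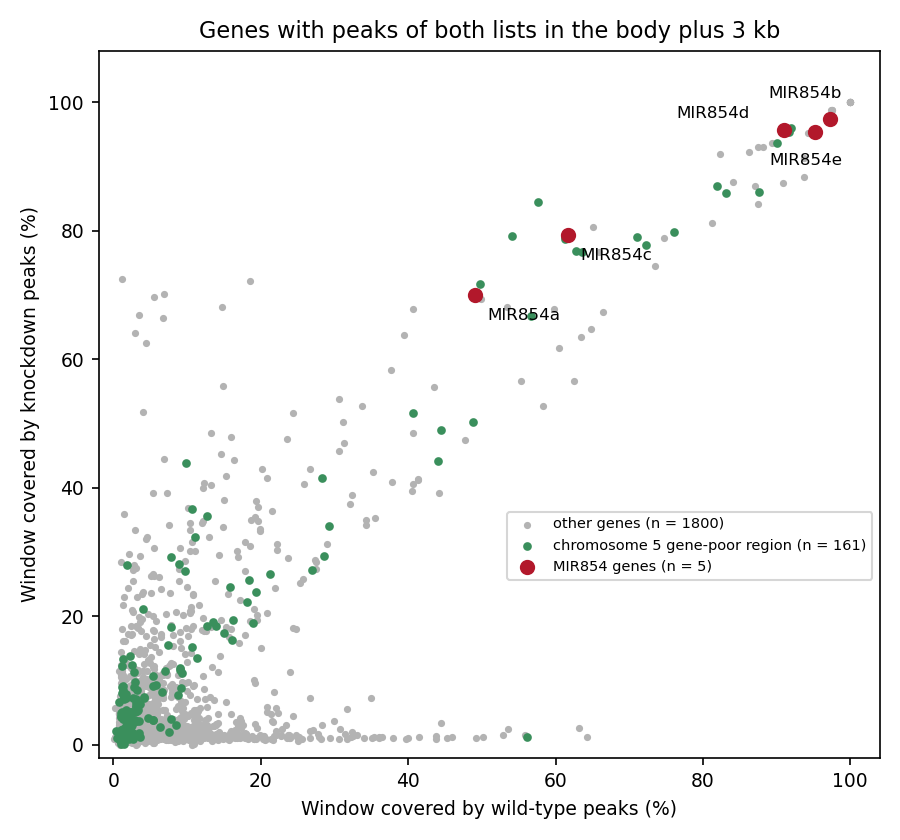
Share of the window (gene body plus 3 kb on both sides, %) under wild-type peaks on the x axis and under knockdown peaks on the y axis, for every gene with peaks of both lists. The 5 MIR854 genes, from 49.1% and 70.1% at MIR854a to 97.3% and 97.4% at MIR854b, stand far from most of the 161 genes of the chromosome 5 gene-poor region and the 1800 other genes. The 161 genes include the members' host pseudogenes, whose windows overlap those of the members.

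Whole runs of peaks had nearly the same extent at MIR854b and MIR854d. Joining wild-type peaks at most 500 bp apart gave a run of 11301 bp at MIR854b, from 3835 bp below to 7465 bp above the gene start. At MIR854d it gave 11306 bp, from 3841 bp below to 7464 bp above. The knockdown runs measured 11337 and 11286 bp, with upper ends at 7474 and 7477 bp. Within them, peaks covered 95.2% and 92.8% of the wild-type runs and 93.6% and 95.9% of the knockdown runs. The highest wild-type summit in the MIR854b window and the summit of a MIR854d peak both lay 2218 bp below the gene start, and so did a knockdown summit at MIR854d. These 2 copies are 365270 bp apart on the chromosome. The sources used here do not say how reads matching several copies were placed, so the peaks of the 5 copies cannot be counted as 5 separate measurements.

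Aligned by the gene start, the 5 windows overlapped in part. Peaks of all 5 copies covered 33.1% of the aligned positions for wild-type peaks and 58.1% for knockdown peaks. The longest stretch common to all 5 ran from 2479 bp above the gene start to the window's end in the wild type (742 bp) and from 2321 bp in the knockdown (900 bp). Every aligned position had peaks at 2 copies or more in each list. The 5 genes were aligned here by coordinate, without turning any copy around. The second pseudogene lies on opposite sides at MIR854d and MIR854e, so an aligned position need not be the same place in each copy. The common stretches are thus common in offset alone.

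Fold enrichment at the summit, the authors' value over the caller's background, was above the median of its list at nearly all peaks of the family. The 26 wild-type peaks that reached into a window had a median fold of 5.38 (range 3.19 to 7.56), and the whole wild-type list had a median of 3.29. The 23 knockdown peaks had a median fold of 9.28 (range 4.36 to 12.7), and the whole knockdown list had a median of 4.35. Among peaks of the chromosome 5 gene-poor region the medians were 3.49 for 502 wild-type peaks and 4.70 for 701 knockdown peaks, with the members' peaks included. Folds are read within a list, since they depend on its depth.

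The highest summit within the window was compared between the copies without a test. In the wild-type list the highest folds were 7.56 at MIR854d, 7.39 at MIR854e, 7.23 at MIR854b, 7.06 at MIR854a and 5.77 at MIR854c. These stand for whole-number pileups of 134, 131, 128, 125 and 102 fragments, worked out from each peak's fold and −log10 p. Their 95% exact Poisson intervals, which cover counting error alone, ran from 112.3 to 158.7 at MIR854d and from 83.2 to 123.8 at MIR854c. The intervals of neighbours in this order overlapped, as did those of the first and the last, but overlap is no test of a difference. Each summit was also picked as the highest of its window, which these intervals do not allow for.

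In the knockdown list the highest folds were 11.6 at MIR854d, 10.96 at MIR854c, 10.4 at MIR854b, 10.2 at MIR854e and 9.28 at MIR854a. The pileups were 103, 97, 92, 90 and 82. Their intervals, from 84.1 to 124.9 at MIR854d and from 65.2 to 101.8 at MIR854a, overlapped. This order was not tested either. The highest knockdown summit of MIR854d lay 1 bp from the gene start, under a peak of 4261 bp. Among summits within the windows MIR854d led in both lists. MIR854c was last there among wild-type summits and the next highest after MIR854d in the knockdown. The 2 weakest wild-type peaks of the family stood next to the uncovered bodies, with folds of 3.19 at MIR854c (335 to 541 bp above the gene start) and 3.25 at MIR854a (438 to 589 bp).

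**Figure D3:**
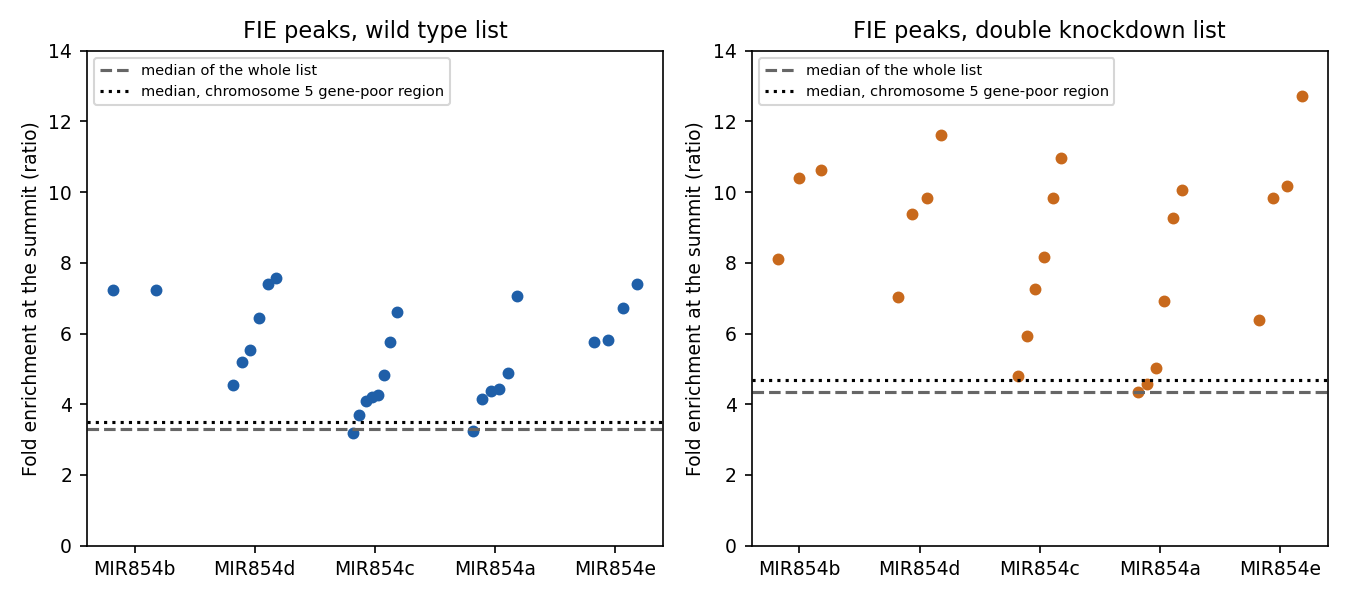
Fold enrichment at the summit (ratio, authors' value) for each peak that reaches into the window of a MIR854 gene, in the wild-type list on the left and the double knockdown list on the right, with the median of the whole list (dashed) and of the chromosome 5 gene-poor region (dotted). The top wild-type peaks reach 6.61 to 7.56 at every copy, and MIR854c and MIR854a also hold weaker peaks down to 3.19.

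The background against which these folds were taken was the lowest of the list. It equalled the lowest value, 16.9 in the wild type, within 0.1% at 26 of 26 wild-type peaks, and 7.94 at 21 of 23 knockdown peaks. By comparison, 27.1% of all wild-type peaks and 36.3% of those in the chromosome 5 gene-poor region had this lowest background. For the knockdown list the shares were 58.2% and 47.2%. The sources used here do not say whether and how the wild-type input entered that background.

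Per recovered depth, the summits were higher in the knockdown list than in the wild-type list at 5 of 5 genes, as they were at most genes with summits of both lists. The ratio of backgrounds, 0.471 at 874 pairs of summits within 30 bp, was taken as the ratio of depths, with fragment length taken as equal. The pileup at the knockdown summit of highest fold over that at the wild-type summit of highest fold, divided by this depth ratio, was 2.02 at MIR854c (95% counting interval 1.51 to 2.69), 1.63 at MIR854d (1.25 to 2.12), 1.52 at MIR854b (1.15 to 2.01), 1.46 at MIR854e (1.10 to 1.92) and 1.39 at MIR854a (1.04 to 1.85). These intervals cover the counting error of the 2 pileups alone, with the depth ratio taken as exact. They do not allow for each summit being picked as the highest, nor for reads shared between copies. An interval above 1 is therefore no test of a difference. The 2 summits of a ratio need not belong to matching peaks. At MIR854c the wild-type summit lay 1046 bp and the knockdown summit 3069 bp above the gene start. At MIR854a they lay 3075 bp above and 860 bp below it. Summits past the window's edge were left out, among them a wild-type pileup of 117 at MIR854c and a knockdown pileup of 89 at MIR854a. The order of the copies thus depends in part on the window. MIR854b also held a knockdown summit of lower fold (8.12) and higher pileup (103) on a higher background, with which its ratio was 1.71. At the 155 other genes of the chromosome 5 gene-poor region with summits of both lists the median was 1.58 (interquartile range 1.36 to 1.83), and 149 were above 1. At 1867 nuclear genes it was 1.40 (1.18 to 1.66), with 1617 above 1. The family was within the range of the other genes of its region. Those genes include the members' host pseudogenes, whose windows hold the members' own summits, so they are not a separate comparison. The lowest pileups that passed at the lowest background were 53 for wild-type and 35 for knockdown peaks. They stand in a ratio of 1.40 on the same scale. How far the list filter enters the ratios above was not tested.

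**Figure D4:**
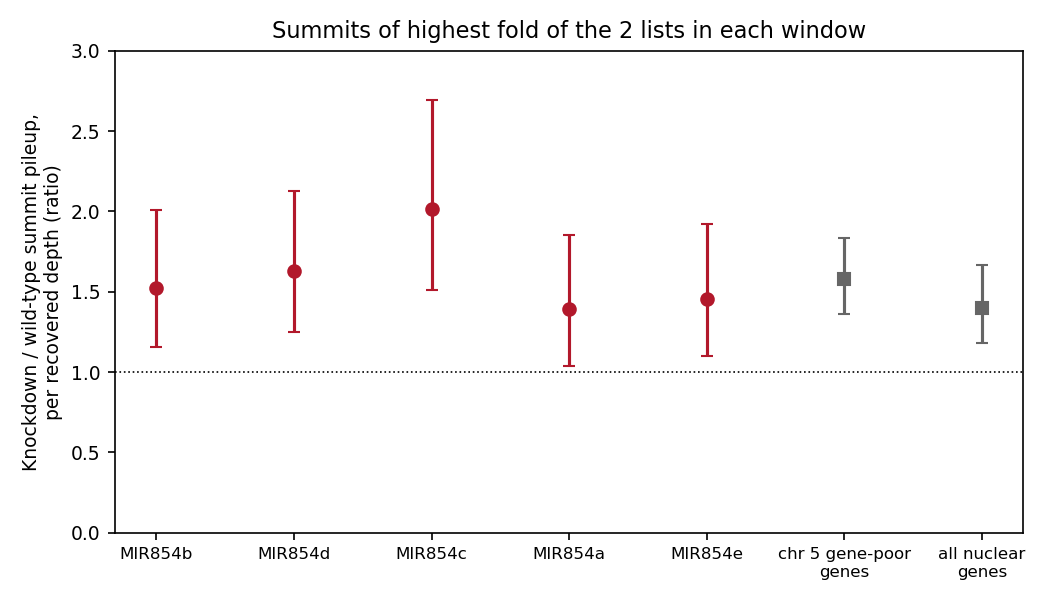
Knockdown over wild-type pileup at the summit of highest fold of each list in the window, divided by the recovered depth ratio, with 95% counting intervals for the 5 MIR854 genes and medians with interquartile ranges for other genes. All 5 genes lie between 1.39 and 2.02, around the median of 1.58 of the other chromosome 5 gene-poor genes. Those other genes include the members' host pseudogenes. The counting intervals do not allow for each summit being picked as the highest and are no test.

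Every pseudogene that reached into a window was also covered in part or in full in both lists. These pseudogenes hold or adjoin genes selected on peaks, so their coverage was in part fixed by that choice. Of all 631 pseudogenes in the chromosome 5 gene-poor region, these included, 22.5% had peaks of both lists in the body plus 3 kb. The host of MIR854b was covered over 94.99% of its length by wild-type and 97.2% by knockdown peaks. For the host of MIR854d the shares were 90.0% and 100%, and for that of MIR854e 95.9% and 100%. The host of MIR854c was covered over 35.8% by wild-type and 73.2% by knockdown peaks, and that of MIR854a over 50.1% and 55.6%. Of the other 5 pseudogenes, AT5G32312 beside MIR854e was covered over 100% in both lists and AT5G31736 beside MIR854d over 93.9% and 96.7%. AT5G32293 beside MIR854e had 90.4% and 100%, AT5G32179 beside MIR854c 70.8% and 79.0%, and AT5G32215 beside MIR854a 55.0% and 83.0%. The peaks thus ran through the surrounding annotation and were not limited to the microRNA genes.

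Other microRNA genes with a like pattern were few. Of 17 others with peaks of both lists in the window, likeness was measured as the distance from the family's median covered lengths on the log2(bp + 1) scale over the 2 lists. Nearest was MIR5642a on chromosome 3, with 6374 bp covered in each list (distance 0.199), followed by MIR5642b at the end of chromosome 2, with 5179 and 5177 bp (0.236). Next came MIR5643b, with 1736 and 1790 bp (2.43), and MIR5643a, with 844 and 1130 bp (3.64). Both lie on chromosome 5 among the MIR854 genes, at 11757140 and 11667797. The fifth, MIR416 on chromosome 2, had 394 and 517 bp (5.21) with no base in common. After the pair of MIR5642 genes the likeness dropped steeply.

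Genes of small RNA production and transposon silencing, the machinery that acts on sequences of this kind, carried fewer covered bases than the MIR854 genes. The MIR854 genes were selected on peaks and the pathway genes were not, so this difference was in part fixed by that choice. Of 29 genes on this list 28 were matched, 9 had a wild-type peak and 6 a knockdown peak within 3 kb, and 16 had none in either list. For all nuclear genes the shares with a wild-type and with a knockdown peak were 26.1% and 16.2%. The share of all nuclear genes with none in either list is not given here, so the count of 16 is a description. UBP1B, the described target, and UBP1A had no peak in either list. Peaks of both lists were found at 3 of the 28 matched genes, against 5.19% of all nuclear genes. At CMT2, a chromomethylase gene, they covered 1716 bp in the wild type (fold 3.86) and 73 bp in the knockdown (fold 4.02). At DCL4, a Dicer-like gene, they covered 202 and 185 bp, and at MOM1, a gene of transcriptional silencing, 94 and 75 bp.

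A wild-type peak alone was found at SUVH6, an H3K9 methyltransferase gene (1061 bp, fold 4.35), and at DCL2 (724 bp, 4.26), another Dicer-like gene. The same held for the DNA methyltransferase gene MET1 (546 bp, 3.26) and the chromatin remodeller gene DDM1 (299 bp, 2.89), which keep transposons methylated. DCL3, which makes siRNAs for DNA methylation (265 bp, 4.14), and HST, an exportin family gene (107 bp, 3.36), completed them. A knockdown peak alone was found at the Argonaute gene AGO1 (100 bp, 3.24), at SGS3 of the secondary siRNA pathway (97 bp, 4.27) and at NRPD1, the largest subunit of RNA polymerase IV (94 bp, 4.58). The peak at 1 of the 9 wild-type genes, CMT2, lay partly in the gene body, and the other 8 lay in the flanks alone. Of the 6 genes with a knockdown peak, 4 had one in the gene body (DCL4, NRPD1, CMT2 and MOM1). The shares of all nuclear genes with a body peak in a single list are not given here, so these counts are descriptions. None of the pathway genes had as much as the 3054 bp covered at the least covered MIR854 gene, but only the MIR854 genes were selected on peaks.

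The 3 kb limit of the rule left no member near its edge, since the farthest nearest peak was 218 bp away. The peak closest to the inside of the limit at MIR854c in the knockdown lay 2970 to 2691 bp below the gene start with a fold of 7.27. The one closest to the outside lay 3388 to 3060 bp below it with a fold of 4.58.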

How the data were processed

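FIE ChIP-seq libraries came from a ThruPLEX DNA-seq kit (per the labels' protocols). Per the submitters' processing notes, the build was TAIR10 and the tools were MACS2 2.1.0.20151222, Bowtie2 and bedtools, with no role given for any. The authors deposited 1 narrowPeak list per anti-FIE group (6540 and 4882 peaks). Each deposited row gives a score (10 times the −log10 q without its decimals), a fold enrichment ratio, a −log10 p-value and a −log10 q-value. The list whose abbreviation the labels do not spell out was taken as the double knockdown, the one other anti-FIE group. Library depth, and how replicates and input were combined, are not given in the sources used here. A pileup and a background were recovered per peak from the deposited fold and −log10 p under a Poisson model with a pseudocount of 1 (largest misfit 7.27e-04), checked on simulated data.

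Gene positions came from the RefSeq table of TAIR10.1, whose nuclear sequences were taken to be those of TAIR10; no coordinate was converted. Gene-poor regions were the longest run of 100 kb bins per chromosome with a coding gene number, smoothed over 5 bins, under 0.5 times the median bin. Named genes were the members, every gene reaching into a window, the 5 nearest other microRNA genes and the pathway genes with a peak. The members, lists and rules were chosen with earlier results of these data known. No test was run, since each group has 1 list. The planned motif search was not run, since no sequence was used here. UBP1C was not matched in the table. Python 3.11.15, NumPy 2.4.6, pandas 2.3.3 and SciPy 1.17.1 were used.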

Additional observations from a re-analysis of the deposited data

How the results depend on the processing

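Counts of MIR854 genes with a wild-type peak, a knockdown peak or both stayed at 5 with 1 kb or 5 kb on both sides, with the summit inside the window and with a −log10 q of 20 or more. With the gene body alone each of the 3 counts fell to 3, since no peak covers the body of MIR854c or MIR854a. Peaks of the lists overlapped each other at 5 genes also when 0.5 of the shorter peak had to be shared. The share of all nuclear genes with peaks in both lists, 5.19%, was 1.20% with the gene body alone, 2.18% with 1 kb, 8.55% with 5 kb and 0.934% at a −log10 q of 20 or more. For the other microRNA genes it was 0.935%, 2.80%, 7.79% and 1.87%. Of the small RNA pathway genes, 12 had a peak in either list, 4 with the gene body alone, 5 with 1 kb and 15 with 5 kb. The median pileup ratio of 1.52, at the summits of highest fold, was the same with the other estimates of depth. Each of those estimates gave the same depth ratio, 0.471, so this sameness is no separate check. Both further alternatives were chosen after the data were seen. The ratio was 1.63 with the summits of highest pileup, and 2.09 with the 5 pairs of summits within 30 bp, of which 4 lie at MIR854c and MIR854a. No paired analysis was possible because each group has 1 list and the replicates have no values of their own, and for the same reason no replicate could be left out. Depth and the deposited −log10 q filter limit what an empty stretch shows.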
